A study of Rattus norvegicus with 4 samples.

Results

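The report concerns 41 genes of DNA replication and mitosis, a list of 20 replication genes that act in S phase and 21 mitosis genes, in neural stem cells and in the neurons made from them. Members were found by matching the accession of each array probe to a rat reference gene table, and 20 of the 41 had a named probe, 9 for replication and 11 for mitosis, of 8927 genes named on the array. The other 21 genes (Mcm2, Mcm3, Mcm4, Mcm5, Mcm6, Cdc6, Tk1, Rfc4, E2f1, Ccne1, Ccne2, Ttk, Bub1, Bub1b, Mki67, Top2a, Cenpf, Kif11, Kif20a, Nusap1 and Ube2c) matched no probe and are not analysed here. The groups were stem cells derived from the hippocampus (HPC), stem cells derived from the olfactory bulb (OB), and neurons obtained from each of these cultures, all from rats of the Fisher 344 strain. According to the title of the series, the sources were adult tissue. No agent, genotype or time of differentiation is given for any group in the sources used here. Each group was measured on 1 one-colour Agilent array, hybridised with a pool of RNA from 3 independent experiments, so no spread between cultures exists and no difference below has a replicate check.

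A cell copies its genome only after origins of replication have been licensed by loading of the MCM helicase, and the fork then needs primase, the sliding clamp, nucleases, ligase and a supply of deoxynucleotides. Entry into mitosis is driven by cyclin B with CDK1, supported by the Polo and Aurora kinases, and exit from it by the anaphase-promoting complex. In the adult brain these programmes run in stem cells and their transit-amplifying progeny of the hippocampal dentate gyrus and the subventricular zone, which supplies the olfactory bulb, and they are shut off as a neuron leaves the cell cycle. Genes of S phase are classically controlled through E2F sites, and genes of mitosis through CCAAT boxes bound by NF-Y and through the cell cycle homology region (CHR) bound by the DREAM and MuvB complexes.

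Promoters from RefSeq on the rat assembly GRCr8 were matched by symbol to 16 of the 20 genes, 8 for replication and 8 for mitosis. Each covers 250 bases before to 50 bases after the gene's start. Shown are Mcm7, the replication gene with the largest difference between stem cells and hippocampal neurons, Tyms, the replication gene that was not lower in neurons, and the mitosis genes Cdk1 and Cdc20. Capitals mark every match, on either strand, to an E2F word (TTTCCCGC, TTTCGCGC, TTTGCCGC or TTTGGCGC), a CCAAT box (CCAAT, or ATTGG on the other strand) or a CHR (TTTGAA).
Mcm7: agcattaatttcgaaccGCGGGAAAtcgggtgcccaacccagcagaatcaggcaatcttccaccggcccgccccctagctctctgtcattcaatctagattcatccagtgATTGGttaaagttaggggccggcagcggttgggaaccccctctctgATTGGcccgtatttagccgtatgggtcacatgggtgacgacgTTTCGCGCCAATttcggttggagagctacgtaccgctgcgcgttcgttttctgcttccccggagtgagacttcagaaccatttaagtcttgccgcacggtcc
Tyms: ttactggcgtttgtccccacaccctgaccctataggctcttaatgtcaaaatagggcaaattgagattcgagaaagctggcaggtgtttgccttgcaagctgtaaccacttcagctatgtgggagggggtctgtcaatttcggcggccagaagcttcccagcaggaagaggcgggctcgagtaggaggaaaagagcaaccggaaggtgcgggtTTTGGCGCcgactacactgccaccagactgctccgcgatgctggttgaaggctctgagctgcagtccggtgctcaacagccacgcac
Cdk1: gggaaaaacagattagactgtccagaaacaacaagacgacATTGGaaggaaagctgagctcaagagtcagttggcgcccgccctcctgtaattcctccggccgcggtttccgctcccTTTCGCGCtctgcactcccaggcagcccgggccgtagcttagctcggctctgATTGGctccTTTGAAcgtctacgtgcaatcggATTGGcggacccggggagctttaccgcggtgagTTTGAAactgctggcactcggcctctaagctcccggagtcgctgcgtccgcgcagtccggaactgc
Cdc20: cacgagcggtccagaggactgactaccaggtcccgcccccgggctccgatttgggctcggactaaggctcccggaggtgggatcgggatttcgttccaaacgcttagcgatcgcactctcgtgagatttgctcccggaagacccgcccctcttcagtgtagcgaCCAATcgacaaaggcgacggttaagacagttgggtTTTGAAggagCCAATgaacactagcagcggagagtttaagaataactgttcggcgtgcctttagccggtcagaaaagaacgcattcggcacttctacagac

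The Mcm7 sequence lies at chr12:22163129-22163428 on the minus strand, that of Tyms at chr9:120776034-120776333 on the minus strand, that of Cdk1 at chr20:19265043-19265342 on the plus strand and that of Cdc20 at chr5:137255750-137256049 on the minus strand. In Mcm7 the E2F word at bases 199 to 206, counted from the 5′ end of the printed sequence, shares its last base with the CCAAT box at bases 206 to 210. Cdk1 held 1 E2F word, 3 CCAAT boxes and 2 CHR words, Cdc20 held 2 CCAAT boxes and 1 CHR word, and Tyms held 1 E2F word. A CHR word was present in 6 of 8 mitosis promoters (Birc5, Ccnb2, Cdc20, Cdca8, Cdk1 and Plk1) and in 0 of 8 replication promoters, against 18.3% of all 33469 promoters of this length. A CCAAT box was present in 7 of 8 mitosis and 5 of 8 replication promoters, against 37.5% of all promoters. An E2F word was present in 3 of 8 replication promoters (Lig1, Mcm7 and Tyms) and in 1 of 8 mitosis promoters (Cdk1), against 2.14% of all. These are matches of letters within a short window, not sites shown to be bound.

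All 20 genes gave a signal well above background, by the call of the scanner software, on all 4 arrays, including both neuron arrays. The lowest of these signals, Tyms in hippocampal stem cells, lay at 16.4 times the lowest signal so called on that array. Levels below are log2 of the processed signal minus the 75th percentile of the array, and differences are in log2 units, where 1 unit is 2-fold. The scanner software's modelled error of a spot gave each difference an error of 0.20 to 0.21, and spots of probes printed repeatedly gave a difference between arrays an SD of 0.090 to 0.12. Both describe spots, not cultures. Over the whole array, 60.2% to 74.0% of probes were well above background. The slides follow the cell state, 1 for stem cells and 1 for neurons, so that slide and state cannot be told apart.

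The first question was how replication and mitosis genes differed between neurons and the stem cells they were derived from. Of the 20 genes, 19 were lower by 2-fold or more on the hippocampal neuron array, where 26.9% of all 6657 genes compared were lower by that much. On the olfactory bulb neuron array 18 were lower, against 20.0% of 7022 genes, and 1 was higher, against 26.9%. The same 18 were lower in both sources, against 16.8% of all genes. Members' medians were -2.70 in hippocampal cells (6.48-fold) and -2.67 in olfactory bulb cells (6.38-fold), while the medians of all genes were -0.32 and 0.08. Every one of the 11 mitosis genes was lower in both sources. Among the 9 replication genes, Tyms was not lower in either source and Rrm2 stayed under 2-fold in olfactory bulb cells.

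**Figure D1:**
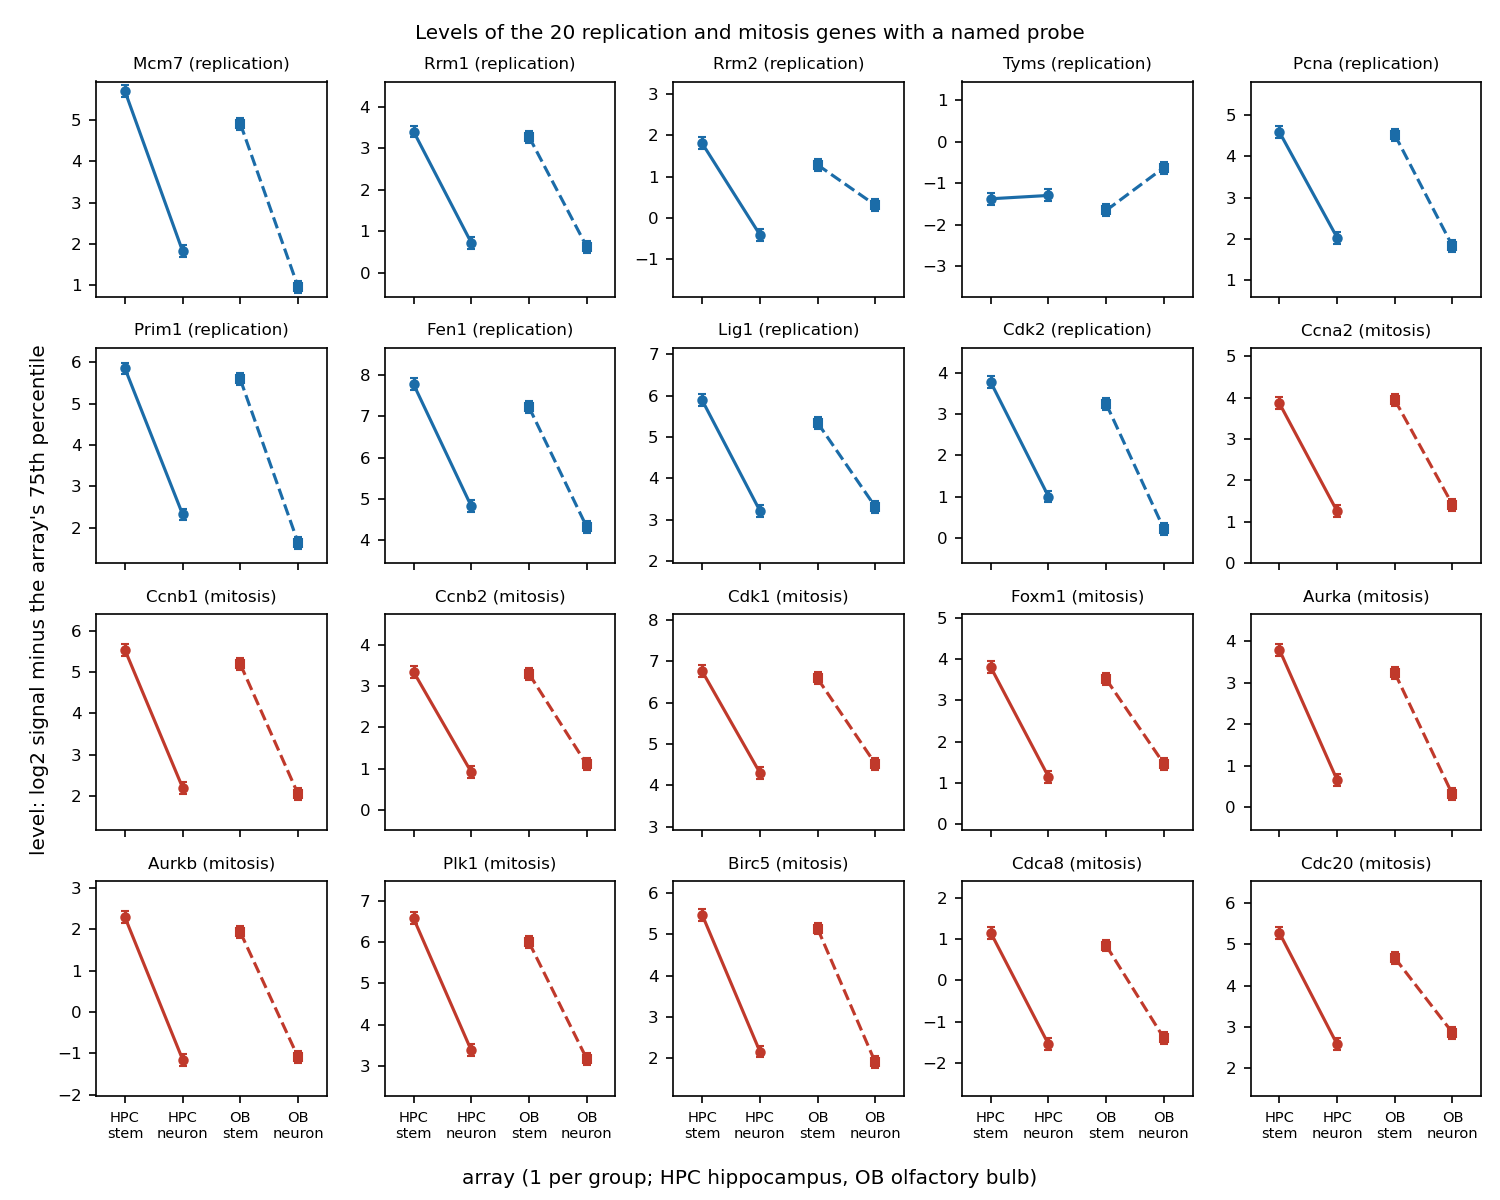
Level of each of the 20 genes (log2 signal minus the array's 75th percentile) on the 4 arrays, with circles and solid lines for hippocampal and squares and dashed lines for olfactory bulb cells, replication genes in blue and mitosis genes in red; error bars are the scanner software's modelled spot error, and every panel spans the same log2 range. The lines run downwards from stem cells to neurons in both sources in every panel but that of Tyms, and the olfactory bulb line of Rrm2 is the shallowest of those that run downwards.

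The same RNA pools differed in markers of other cell types. All 7 named fibroblast and pericyte markers were higher by 2-fold or more on both neuron arrays, with medians of at least 8.68 and 11.03, since most were not well above background in stem cells. Their summed level, in units of each array's 75th percentile, was 0.134 and 0.156 on the hippocampal and olfactory bulb stem cell arrays, where Col3a1, Dcn, Lum, Pdgfrb and Tagln were not well above background, and 604 and 845 on the corresponding neuron arrays. Astrocyte markers were higher for 6 and 7 of 8 genes, with sums of 41.9 and 31.9 on stem cell and 120.0 and 104 on neuron arrays. Microglia and macrophage markers were higher for 4 and 5 of 6 genes compared. Of the 8 named on that list, Itgam and Cx3cr1 were not well above background on any array and were not compared. Over all genes compared, 21.8% and 26.9% were higher by 2-fold or more. The 8 named neural stem cell markers summed to 262 and 216 on the stem cell arrays, where only Prom1 was not well above background, and to 213 and 239 on the neuron arrays. The 11 named neuron markers summed to 33.8 on both stem cell arrays and to 5.67 and 6.35 on the neuron arrays, with 5 and 6 genes lower and 2 and 3 higher. Gap43, a growth cone protein with the highest mean level of the list (-4.30 and -3.11), and the neuronal tubulin gene Tubb3 (-2.73 and -3.08), were lower. Stmn2, a microtubule regulator of growing axons (higher by at least 5.83 and 5.01), and Snap25, of the synaptic vesicle fusion machinery (3.97 and 3.08), were higher. The neuron markers were thus divided, and "neurons" below means the arrays so labelled. Oligodendrocyte lineage markers, which progenitors of that lineage also carry, summed to 282 and 188 on the stem cell arrays and to 32.3 and 42.3 on the neuron arrays. The part of such cell mixtures in the results was not tested, and in bulk RNA fewer dividing cells and less RNA per cell cannot be told apart.

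Among genes of origin licensing, only Mcm7, a subunit of the helicase that opens DNA at origins, had a named probe. Its level was 5.69 in hippocampal stem cells and 1.82 in the neurons made from them, and 4.91 in olfactory bulb stem cells and 0.96 in their neurons. Both stem cell arrays lay far above both neuron arrays. The differences of -3.87 and -3.94 left 6.84% and 6.50% of the stem cell signal, and placed Mcm7 at rank 17 of 6657 and rank 84 of 7022 genes counted from the lowest.

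Genes of the fork itself were lower throughout. Prim1, the catalytic subunit of primase, which lays down RNA primers, was at 5.85 and 5.58 in hippocampal and olfactory bulb stem cells and at 2.32 and 1.64 in the respective neurons. Its differences of -3.53 and -3.94 equal 11.6-fold and 15.4-fold. With Mcm7 it had the largest difference in olfactory bulb cells among the 20 genes. Fen1, the nuclease that trims Okazaki fragments, was at 7.78 and 7.22 in hippocampal and olfactory bulb stem cells and at 4.83 and 4.33 in neurons, differences of -2.95 and -2.89. Pcna, the sliding clamp of the polymerases, was at 4.58 and 4.52 in stem cells and at 2.03 and 1.83 in neurons, differences of -2.55 and -2.69. For these genes the differences of the 2 sources lay within 0.41 of each other under this scaling. With spike-in scaling they lay further apart, at -3.09 and -4.98 for Prim1, -2.51 and -3.93 for Fen1 and -2.11 and -3.72 for Pcna. Lig1, which seals nicks between Okazaki fragments, differed by -2.67 in hippocampal and by -2.03 in olfactory bulb cells. Its levels were 5.89 and 5.34 in stem cells and 3.21 and 3.31 in neurons. With spike-in scaling the order of the sources turned for Lig1 (-2.23 and -3.06).

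Nucleotide supply was the role in which the genes disagreed. Rrm1, the large subunit of ribonucleotide reductase, was at 3.41 and 3.28 in stem cells and at 0.72 and 0.63 in neurons, so that 15.5% and 15.9% of the signal was left. Rrm2, the small subunit of the same enzyme, whose abundance is known to limit its activity through the cell cycle, was at 1.80 in hippocampal and 1.28 in olfactory bulb stem cells and at -0.41 and 0.31 in the neurons. Its differences were -2.21 and -0.97, which left 21.6% of the signal in hippocampal and 51.0% in olfactory bulb neurons. The second Rrm2 probe gave -2.08 and -0.81, so both probes showed the smaller difference in olfactory bulb cells under this scaling. With median scaling Rrm2 was lower by more than 2-fold in both sources (-2.67 and -1.51). With spike-in scaling the order of the sources turned (-1.77 and -2.01).

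Tyms, thymidylate synthase, which makes the thymidine nucleotide for DNA, stood alone among the 20 genes. It was at -1.38 in hippocampal stem cells, -1.30 in hippocampal neurons, -1.66 in olfactory bulb stem cells and -0.62 in olfactory bulb neurons. The last of these lay furthest from the others. The difference was 0.08 in hippocampal cells, within the spot error, and 1.03 in olfactory bulb cells, a 2.05-fold higher signal. The call of 2-fold was lost with normexp (0.85), quantile normalization (0.90), median scaling (0.50) and spike-in scaling (0.00). The gene had a single named probe, with signals between 187 and 470.5 intensity units.

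Of the regulators of entry into S phase, only Cdk2, the kinase partner of cyclins E and A, was measured. Its level was 3.77 and 3.24 in hippocampal and olfactory bulb stem cells and 1.00 and 0.22 in neurons. The differences were -2.76 and -3.02, and a second probe gave -2.99 and -3.18.

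The cyclins of mitosis and their kinase were lower to a similar degree in both sources under this scaling. With spike-in scaling the median of the mitosis genes was -2.26 in hippocampal and -3.57 in olfactory bulb cells. Ccnb1, cyclin B1, was at 5.53 and 5.18 in hippocampal and olfactory bulb stem cells and at 2.20 and 2.05 in the respective neurons, differences of -3.33 and -3.14. Ccnb2, cyclin B2, was at 3.34 and 3.30 in stem cells and at 0.92 and 1.10 in neurons (-2.42 and -2.19). Ccna2, cyclin A2, which acts in S phase and early mitosis, was at 3.86 and 3.94 in stem cells and at 1.25 and 1.41 in neurons (-2.61 and -2.53). With the probes and scaling used, the stem cell arrays differed from each other by 0.34 or less in each of these cyclins. The neuron arrays differed by 0.19 or less, and both were far under the differences between states. Over the 9 settings the differences reached 0.94 between stem cells (Ccna2) and -0.76 between neurons (Ccnb1). Cdk1, the kinase that the B cyclins activate, was at 6.76 and 6.58 in stem cells and at 4.30 and 4.52 in neurons. Its differences of -2.45 and -2.06 left 18.2% and 24.0% of the signal. Foxm1, a transcription factor that drives genes of the G2 and M phases, was at 3.80 and 3.51 in stem cells and at 1.15 and 1.46 in neurons, differences of -2.65 and -2.04. For Cdk1 and Foxm1 the stem cell arrays again lay well above the neuron arrays.

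Kinases of the spindle and centrosome were lower as well. Aurkb, the catalytic subunit of the chromosomal passenger complex, was at 2.29 and 1.93 in hippocampal and olfactory bulb stem cells and at -1.15 and -1.09 in neurons. Its difference of -3.44 in hippocampal cells was the largest of any mitosis gene there. Aurka, which acts at centrosomes, was at 3.80 and 3.24 in stem cells and at 0.65 and 0.30 in neurons (-3.15 and -2.94). Plk1, the Polo kinase of mitotic entry, was at 6.57 in hippocampal stem cells, with a difference of -0.58 to olfactory bulb stem cells, and at 3.38 and 3.18 in neurons (-3.19 and -2.81). In all 3 kinases the difference was larger in hippocampal cells, by 0.21 to 0.42, whereas with spike-in scaling it was larger in olfactory bulb cells (olfactory bulb minus hippocampal difference -1.05 for Aurkb, -1.26 for Aurka and -1.09 for Plk1). Other members of the passenger complex were Birc5 (survivin) and Cdca8 (borealin), which hold Aurkb at centromeres. Birc5 was at 5.47 and 5.14 in hippocampal and olfactory bulb stem cells and at 2.17 and 1.91 in neurons, differences of -3.31 and -3.23, or 9.89-fold and 9.40-fold. Cdca8 was at 1.15 and 0.84 in stem cells and at -1.54 and -1.39 in neurons, differences of -2.70 and -2.24. Thus all 3 measured genes of that complex were lower in both sources.

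Cdc20, the activator that directs the anaphase-promoting complex to its substrates, had the smallest difference of the mitosis genes in olfactory bulb cells. It was at 5.28 and 4.67 in hippocampal and olfactory bulb stem cells and at 2.58 and 2.86 in neurons. The differences of -2.69 and -1.81 left 15.4% and 28.6% of the signal.

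**Figure D2:**
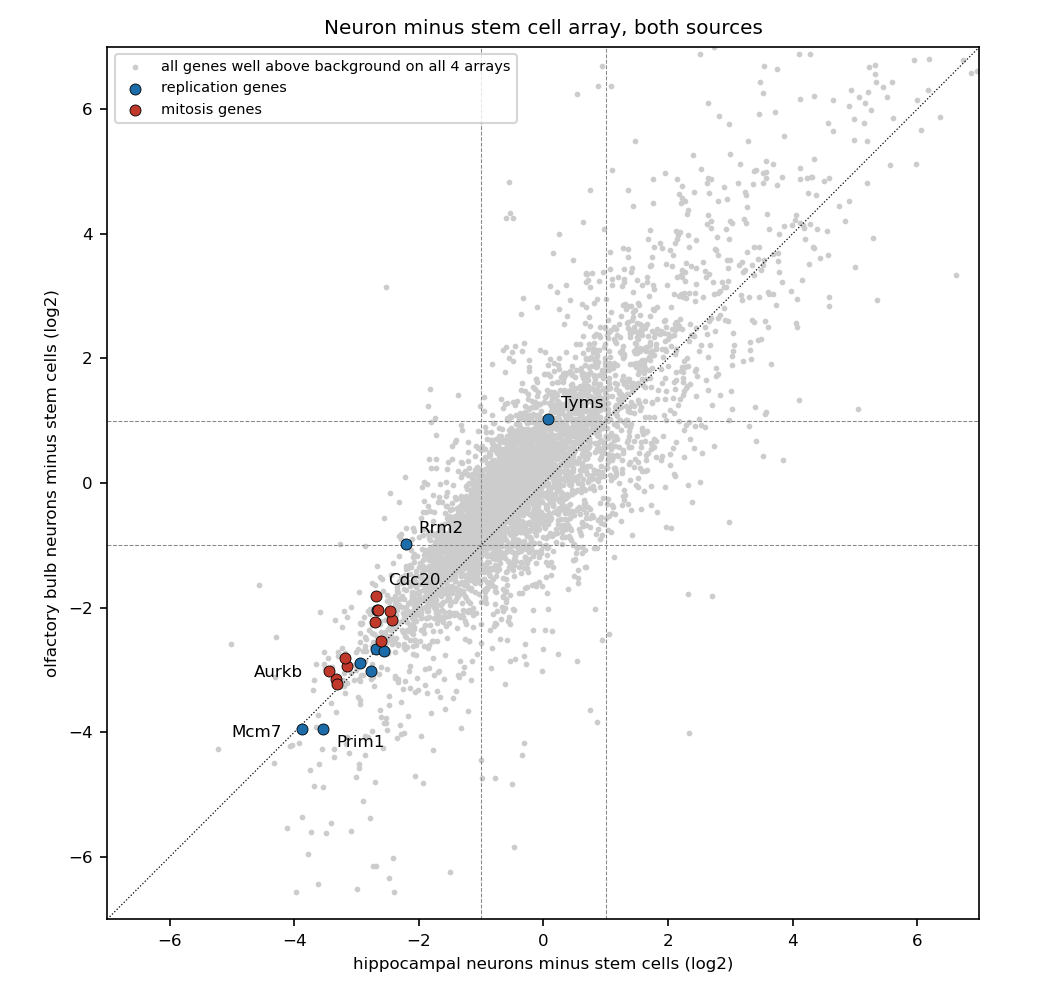
Difference between the neuron and the stem cell array (log2) in hippocampal cells (horizontal) and olfactory bulb cells (vertical), for 5495 genes well above background on all 4 arrays in grey, of which 58 lie outside the axes, with replication genes in blue and mitosis genes in red; dashed lines mark 2-fold and the dotted line equal differences. All mitosis genes lie between -3.44 and -1.81 on both axes, close to the dotted line, while Tyms and Rrm2 lie above the other replication genes.

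Differences were then set side by side for replication and mitosis. In hippocampal cells the medians were -2.69 for 9 replication and -2.70 for 11 mitosis genes, a gap of 0.01. In olfactory bulb cells they were -2.69 and -2.53, a gap of -0.16. The gap in hippocampal cells came to 0.24 without Cdk2 and Ccna2 and to 0.37 with quantile normalization. The spread among genes differed more than the medians: replication genes ranged from -3.87 to 0.08 in hippocampal and from -3.94 to 1.03 in olfactory bulb cells, and mitosis genes from -3.44 to -2.42 and from -3.23 to -1.81. The SD across genes was 1.12 and 1.56 for replication and 0.38 and 0.50 for mitosis. Mcm7 and Prim1 made up the low end of the replication range, and Tyms alone the high end in both sources.

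**Figure D3:**
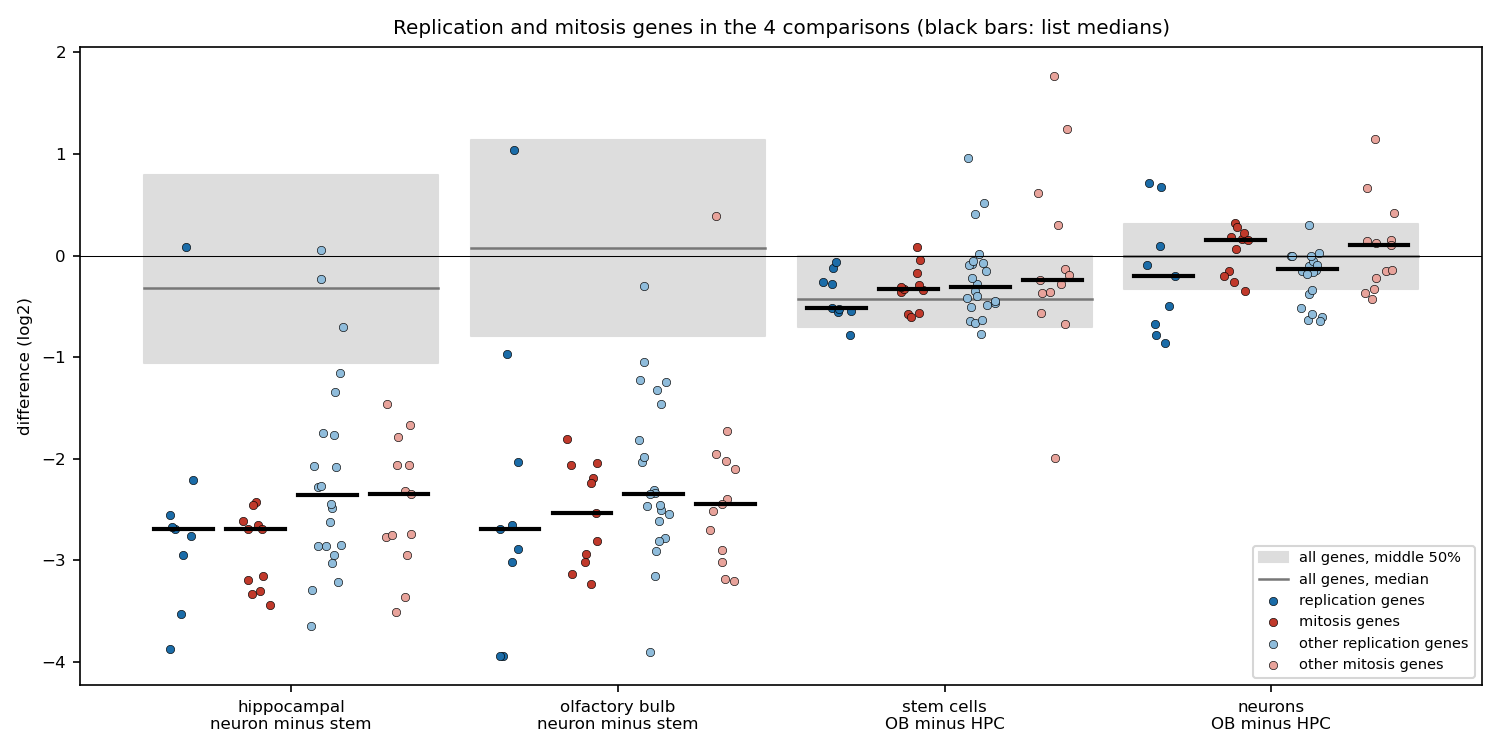
Differences (log2) of the replication, mitosis, other replication and other mitosis genes in the 4 comparisons, 1 point per gene with black bars at list medians; grey bands hold the middle 50% of all genes compared and the grey line their median. In both neuron against stem cell comparisons the medians of all 4 lists lie between -2.70 and -2.35, below the grey band, and in both comparisons of olfactory bulb with hippocampus they lie between -0.52 and 0.15.

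Genes of the same pathways outside the 41 were lower as well. Over all 6567 genes compared in both sources, 16.8% were lower by 2-fold or more in both and 18.5% were higher in both. Of 46 further replication genes 22 had a named probe, and 19 of these, all but Orc2, Orc3 and Orc4, were lower by 2-fold or more in both sources and 0 higher, with medians of -2.36 and -2.35. The largest differences shared by both sources were those of Orc1, a subunit of the origin recognition complex (-3.65 and -3.91), Chaf1b, of the chromatin assembly factor behind the fork (-3.22 and -3.15), Dnmt1, the maintenance DNA methyltransferase (-3.03 and -2.91), and Pold1, the catalytic subunit of polymerase delta (-3.30 and -2.78). Of 50 further mitosis genes 13 had a named probe, and 12 of these, all but Hmmr, were lower in both sources and 0 higher, with medians of -2.35 and -2.44. They were led by Tacc3 (-3.36 and -3.21) and Spc25 (-2.95 and -3.18), which act at spindle microtubules and kinetochores, the securin gene Pttg1 (-2.76 and -2.90) and the kinesin gene Kifc1 (-3.52 and -2.71).

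Several probes were available for 9 of the 20 genes, 19 probes in all, and give a technical check on the size of the differences. Probes of a gene differed from each other by a median of 0.13 in hippocampal and 0.16 in olfactory bulb cells and by at most 0.26 and 0.39, both for Fen1. All 19 probes lay below 0 in both sources, and of all 30 probes of the 20 genes 29 were lower by 2-fold or more in hippocampal and 27 in olfactory bulb cells. The check covers hybridisation, not cultures.

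**Figure D4:**
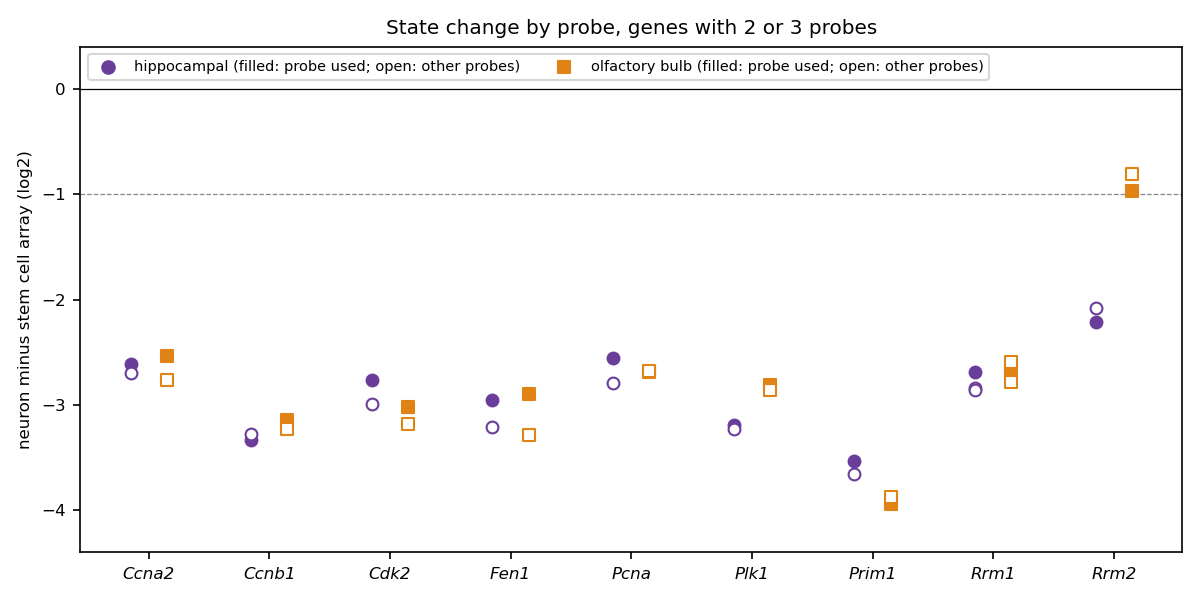
Neuron minus stem cell difference (log2) given by each probe of the 9 genes with 2 or 3 named probes, circles for hippocampal and squares for olfactory bulb cells, filled for the probe used and open for the others; the dashed line marks 2-fold. Probes of a gene lie within 0.39 of each other, and both Rrm2 probes lie near the dashed line in olfactory bulb cells.

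A limma fit over the 4 arrays with terms for state and source, in which the 2 sources stand as the repeat of a state, called 19 of the 20 genes lower in neurons and 0 higher at a Benjamini-Hochberg adjusted p of 0.05. Over all 7112 genes tested, 22.1% were called lower. The gene not called was Tyms (0.56 ± 0.47 SE, adjusted p 0.358), and the called gene with the weakest support was Rrm2 (-1.59 ± 0.40, adjusted p 0.000338). The fit has 1 residual degree of freedom and its estimate of the prior degrees of freedom was infinite, so each gene's own residual carried no weight and its smallest p-values mean little. Without the trend on mean level, limma called the same number, 19 genes, with adjusted p-values from 0.000871 (Mcm7) to 0.0492 (Rrm2), against 12.1% of all genes called lower. A difference between the slides would be called as state.

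The second question was whether olfactory bulb and hippocampal cells of the same state differed in these genes. In stem cells 0 of the 20 genes differed by 2-fold or more, against 4.16% of 6028 genes higher and 6.98% lower. In neurons 0 of 20 did, against 7.66% of 6999 genes higher and 8.0% lower. The largest differences in stem cells were those of Mcm7 (-0.78), Cdc20 (-0.61), Plk1 (-0.58) and Aurka (-0.56), and 19 of the 20 genes were below 0. The median of all genes in that comparison was itself -0.43, against -0.34 for the members, and with spike-in scaling both medians turned positive (0.43 and 0.52), so the direction of the stem cell differences rests on the scaling.

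In neurons the replication genes lay on both sides of 0. Mcm7 (-0.86), Cdk2 (-0.78), Prim1 (-0.68) and Fen1 (-0.50) were lower in olfactory bulb neurons, at 55.2%, 58.2%, 62.5% and 70.9% of the hippocampal signal, each by more than the spot error. Rrm2 (0.72) and Tyms (0.67) were higher, at 164% and 159%, but with spike-in scaling their differences were 0.11 and 0.06. The remaining 3, Pcna (-0.21), Rrm1 (-0.09) and Lig1 (0.10), differed by about the spot error or less. Mitosis genes ranged only from -0.35 (Aurka) to 0.32 (Foxm1). The replication median was -0.21 and the mitosis median 0.15, a gap of -0.36, and the median of all genes was -0.01. Mcm7, Cdk2, Prim1 and Fen1 passed 2-fold with spike-in scaling, from -1.11 (Fen1) to -1.47 (Mcm7), where the median of all genes was -0.62 and the mitosis median -0.46. Of all 6999 genes, 1505 were lower by 2-fold or more under that scaling. The second Rrm2 probe gave 1.06 in place of 0.72, and the second Ccnb1 probe 0.26 in place of -0.15 in neurons and 0.21 in place of -0.34 in stem cells, so the sign for Ccnb1 depends on the probe.

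**Figure D5:**
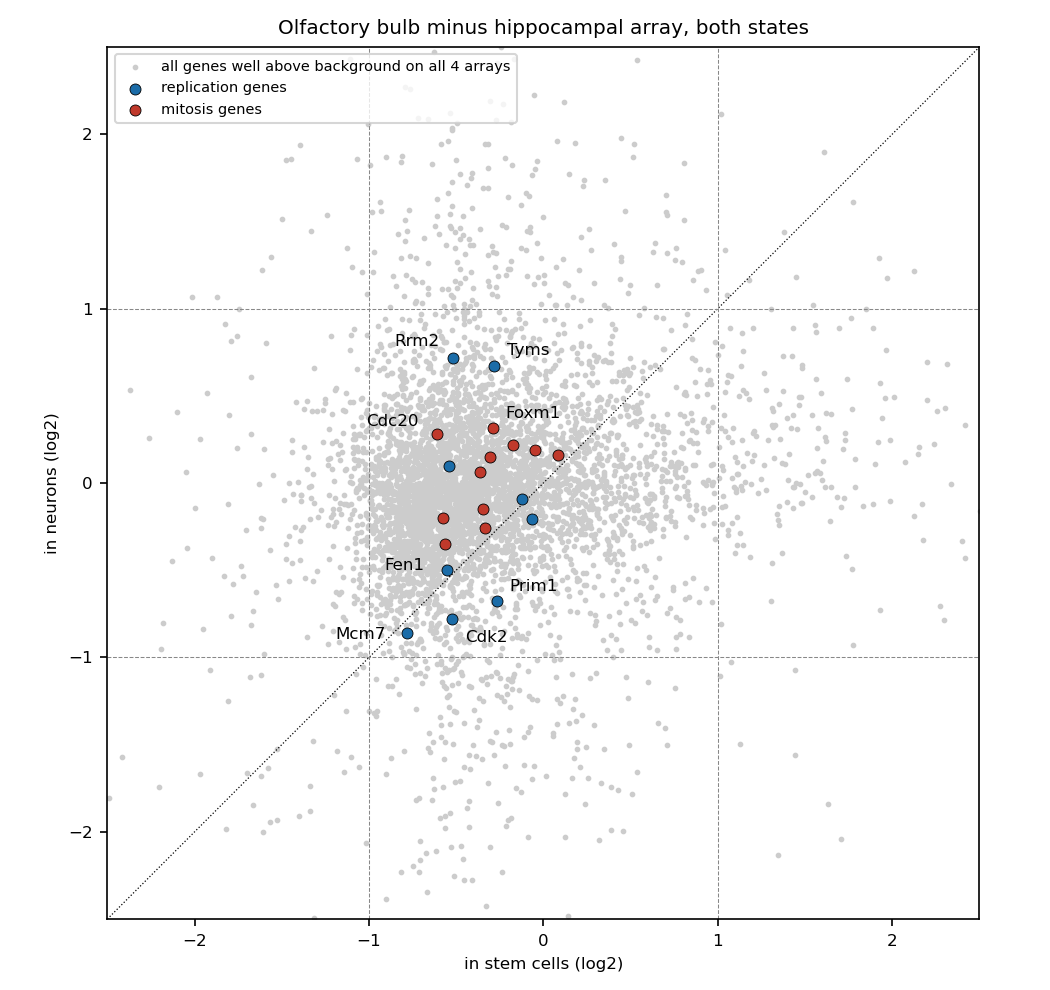
Difference between the olfactory bulb and the hippocampal array (log2) in stem cells (horizontal) and in neurons (vertical), for 5495 genes well above background on all 4 arrays in grey, of which 109 lie outside the axes, with replication genes in blue and mitosis genes in red; dashed lines mark 2-fold and the dotted line equal differences. All 20 genes lie inside the 2-fold lines, with Mcm7, Cdk2 and Prim1 at the bottom and Rrm2 and Tyms at the top.

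The limma fit called 0 of the 20 genes for source, against 0.534% of 7112 genes higher and 1.76% lower (lowest adjusted p 0.389, for Mcm7). In that limma fit 1 of the 20 genes, Mcm7, had an unadjusted p under 0.05, as did 633 of all 7112 genes. Without the trend limma called 0 of the 20, and 0 had an unadjusted p under 0.05, against 398 of all 7112 genes. Across all genes the limma fit called 38 higher and 125 lower with the trend and 0 without it. Both sources may still differ in these genes by less than such a fit can call.

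The last comparison asked whether the difference between neurons and stem cells was of the same size in both sources. Subtracting the hippocampal from the olfactory bulb difference gave values from -0.41 (Prim1) to 1.24 (Rrm2), and 0 of 20 genes reached 2 units (4-fold), against 4.13% of 5495 genes. Only Rrm2 passed 1 unit, followed by Tyms (0.95), Cdc20 (0.89), Lig1 (0.64) and Foxm1 (0.61). All 11 mitosis genes had the smaller difference in olfactory bulb cells, with a median of 0.38, but this direction rests on the scaling: 4 of 11 kept it with quantile normalization and 0 of 11 with spike-in scaling (median -1.09). The median over all genes was 0.34, and 3907 of 5495 genes lay above 0, so the mitosis genes sat near the general shift. Replication genes had a median of 0.03, with 5 above and 4 below 0, and 0 of 9 were above 0 with spike-in scaling (median -1.44). The design leaves no test of these values.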

How the data were processed

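Total RNA from 4 cell groups (1 array each, 1.0 ug RNA labelled with Cy3) was measured on Agilent arrays designed on build rn4. The deposited intensity values are Feature Extraction output (Agilent Feature Extraction 10.5.1.1 per the submitters' processing notes). Per the file headers, background and spatial trends were subtracted within arrays, and scaling between arrays is not recorded. The authors' series table held the same values (largest difference 0).

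Here outlier spots were dropped (254 of 41012 probes left out), spots of a probe were averaged as log2, and the 75th percentile of each array was subtracted. No spot was saturated. RefSeq accessions without versions named 10783 of 40758 probes (29975 matched none), through a GRCr8 gene table used for names only. The brightest probe over 4 arrays stood for a gene. A gene entered a comparison if well above background on at least 1 of its 2 arrays; a dim side was set to the lowest signal so called, or its own if higher. Calls were made at 1 log2 unit (2-fold), and at 2 units for the difference of state changes. R 4.3.3 and limma 3.58.1 (lmFit, eBayes with trend, state and source terms) tested genes well above background on any array. On simulated data the fit called 16% of state changes of 1 log2 unit, 58% of those of 2 units and 100% of those of 4 units. The simulation used the spreads estimated by the fit itself, so it cannot check those spreads. The members and gene lists were chosen with earlier results of these data known. All 20 members with a probe are named, with up to 4 further genes per list and direction by the smaller of their 2 state changes, and marker genes; which markers to name was decided after their values were seen. Alternatives were normexp (offset 50, on median spot signals), quantile, median and spike-in scaling (224 of 320 spots), stricter and no filters on dim probes, the mean over probes, the authors' table and a fit without trend. The number of arrays limits the precision.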

Additional observations from a re-analysis of the deposited data

Results flagged for a closer look

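Source differences between olfactory bulb and hippocampus went in opposite directions in stem cells and in neurons, each by more than the spot error, for 4 of the 20 genes, and these contrasts were not tested against each other. The share of all genes that did so was not computed. In stem cells the median of all genes was itself -0.43, with 4538 of 6028 genes below 0, and in neurons it was -0.01. Rrm2 was at -0.52 in stem cells and 0.72 in neurons, and Tyms at -0.28 and 0.67. Cdc20 was at -0.61 and 0.28, and Foxm1 at -0.29 and 0.32. With spike-in scaling all 4 values in stem cells turned positive (highest 0.34 for Rrm2, 0.58 for Tyms, 0.25 for Cdc20 and 0.57 for Foxm1), Cdc20 and Foxm1 turned negative in neurons (-0.33 and -0.29), and Rrm2 and Tyms came to 0.11 and 0.06 in neurons.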

How the results depend on the processing

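The 18 genes lower by 2-fold or more in both sources remained so under all 9 settings. Of the results for single genes in 4 comparisons under 8 alternatives, 630 of 640 kept their side of 2-fold, 4 no longer passed it (Tyms in olfactory bulb cells) and 6 newly passed it (Rrm2 in olfactory bulb cells under 2 settings, and 4 genes between neurons). The sign turned in 46 of these 640 results, 32 between stem cells (19 of them with spike-in and 9 with quantile scaling), 12 between neurons, 2 in hippocampal cells (both Tyms) and 0 in olfactory bulb cells, and in 0 of the 304 whose main value passed 2-fold. The count of 1 gene higher in olfactory bulb neurons became 0 with normexp, quantile, median and spike-in scaling, and the count of 0 genes lower in olfactory bulb against hippocampal neurons became 4 with spike-in scaling. In that comparison the count over all 6999 genes rose as well, from 560 to 1505 lower. The gap of the replication minus the mitosis median moved by more than the spot SD of a difference in these cases. In hippocampal cells it came to 0.37 with quantile normalization and 0.24 without Cdk2 and Ccna2; in olfactory bulb cells to -0.037 with the mean over probes; between stem cells to -0.058 with the mean over probes and -0.063 without Cdk2 and Ccna2; and between neurons to -0.25 with quantile normalization, -0.24 with the mean over probes and -0.26 without Cdk2 and Ccna2. The causes were not tested. The limma fit called 17 members for state with spike-in scaling, where Rrm2 (limma, adjusted p 0.228) and Ccnb2 (0.0536) were lost, and 19 otherwise. The all-gene median of -0.32 in hippocampal cells became -0.78 (median scaling) or 0.12 (spike-ins), and that of 0.08 in olfactory bulb cells became -0.41 or -0.90. Relative to it, the members' median stayed between -2.80 and -2.13 under all 9 settings. Higher genes made up 44.8% of all genes called in hippocampal cells (28.8% with median and 66.5% with spike-in scaling) and 57.4% in olfactory bulb cells (37.0% and 25.3%). The files hold no gene name column, so naming by accession alone was the only setting and was not run as an alternative. No paired analysis was possible because the labels give no replicate numbers and each group has 1 array, other than the limma fit, which pairs a neuron array with the stem cell array of its source. Leaving out an array leaves no residual degree of freedom.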

Other observations

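Among the further genes of these pathways, some were singled out after their values were seen. The 6 subunits of the origin recognition complex, which marks origins for licensing, did not move alike between stem cells and neurons. Orc1 and Orc6 were lower by 3.65 and 2.62 in hippocampal cells and by 3.91 and 2.03 in olfactory bulb cells. Orc5 differed by -1.15 and -1.24, Orc2 by -0.71 and -1.23, Orc3 by -0.23 and -0.30 and Orc4 by 0.05 and -1.05. The members' medians were -2.70 and -2.67, and the medians of all genes -0.32 and 0.08.

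Differences of 2-fold between the stem cell cultures, absent from the 20 members, did occur among the further mitosis genes. Kif15, a spindle kinesin, was higher in olfactory bulb stem cells by 1.77 and Cep55, a protein of cell abscission, by 1.25, while Hmmr, a spindle protein that also binds hyaluronan, was lower, at -2.88 against -0.89. From stem cells to neurons Hmmr differed by -1.46 in hippocampal and by 0.39 in olfactory bulb cells, and Kif15 by -1.67 and -3.02. Cep55 was lower by 2.35 in hippocampal and by 2.44 in olfactory bulb cells. On the hippocampal neuron array it was not well above background, so the value of 2.35 rests on a dim signal.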
